A study of Mus musculus with 9 samples.

Results

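Day 9 was compared with day 3 in mice given talc into the space around the left lung. The comparison used 6 of the 9 RNA libraries of the series, chosen by the day in their labels, with 3 libraries per day numbered 1, 3 and 4. All animals were labelled wild type (WT) and had been sedated, and each received 200 µL of a talc suspension in saline at 2.0 g/kg, injected through the diaphragm. Tissue was taken 3 or 9 days later, and the 3 remaining libraries came from 30 min after talc and are called day 0. Every group had therefore received talc, no untreated group was analysed here, and the sources used here give neither strain nor age. GEO's labels describe the tissue once as adhesion between chest wall and lung and once as left lung attached to the chest. The labels do not say whether the replicates of a day were separate mice, so p-values may reflect spread between tissue samples and not between mice.

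Talc irritates the pleura, the mesothelium-lined membranes around the lung, and is used clinically to make the lung adhere to the chest wall. The early response brings fibrin, neutrophils and monocytes to the injured surface. Later, macrophages take up particles and debris while fibroblasts lay down collagen, elastin and other matrix that turn a fibrinous bridge into a fibrous one. The question of this comparison was which transcripts marked the passage from the first phase to the second.

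The 6 libraries held between 12769059 and 18701063 counts each. Expression is given as CPM, which scales counts to equal library size with TMM factors, in the order of replicates 1, 3 and 4. Gene lengths are not taken into account, so levels are compared between days for a gene and not between genes. Of 14794 genes tested, 768 were higher at day 9 (5.19%) and 542 were lower (3.66%) at an adjusted p under 0.05, or 1310 in all (8.85%). An unadjusted p under 0.05 was found for 3962 genes (26.8%). Only genes with an adjusted p under 0.05 are called, and said to have risen or fallen, below. The day 9 libraries lay all above those of day 3 in 14.4% of tested genes and all below in 14.1%. Lack of overlap between days, given for single genes below, is therefore common and is not a call. At least 2-fold changes were found for 401 of the higher genes (2.71% of those tested) and 198 of the lower genes (1.34%). The median log2 fold change was -0.04 over all tested genes, 1.03 over the higher genes and -0.87 over the lower ones. By the authors' deposited table, 641 genes were higher and 457 lower at an FDR under 0.05, of which 505 and 315 were called in the same direction here. The count depended on single libraries. Without day 3 replicate 3 it was 2450 higher and 1648 lower, and without day 9 replicate 4 it was 270 and 85. Without day 9 replicate 1 or 3 it was 488 and 132 or 472 and 200. The day 0 libraries are outside the contrast but enter the gene filter, the TMM factors and the estimate of spread. Without day 0 replicate 1, 2 or 3 the count was 482 and 285, 477 and 265, or 575 and 352. With only the 6 libraries of days 3 and 9 it was 167 and 91. Of the 93 called genes named here, 34 were then not called. Among these, 13 had kept their call without any single library, namely Adam12, Bgn, Bmp1, Cd84, Col5a2, Ctss, Fabp5, Igf1, Itgav, Pdgfrb, Timp2, Tnfrsf1b and Trem2, with adjusted p from 0.0514 to 0.0745 in the 6 libraries. Called collagen chains were then 4, collagen processing genes 3, proteases and inhibitors 3, macrophage genes of scar and lipid handling 4, lysosome genes 3 and ribosome biogenesis genes none.

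**Figure D1:**
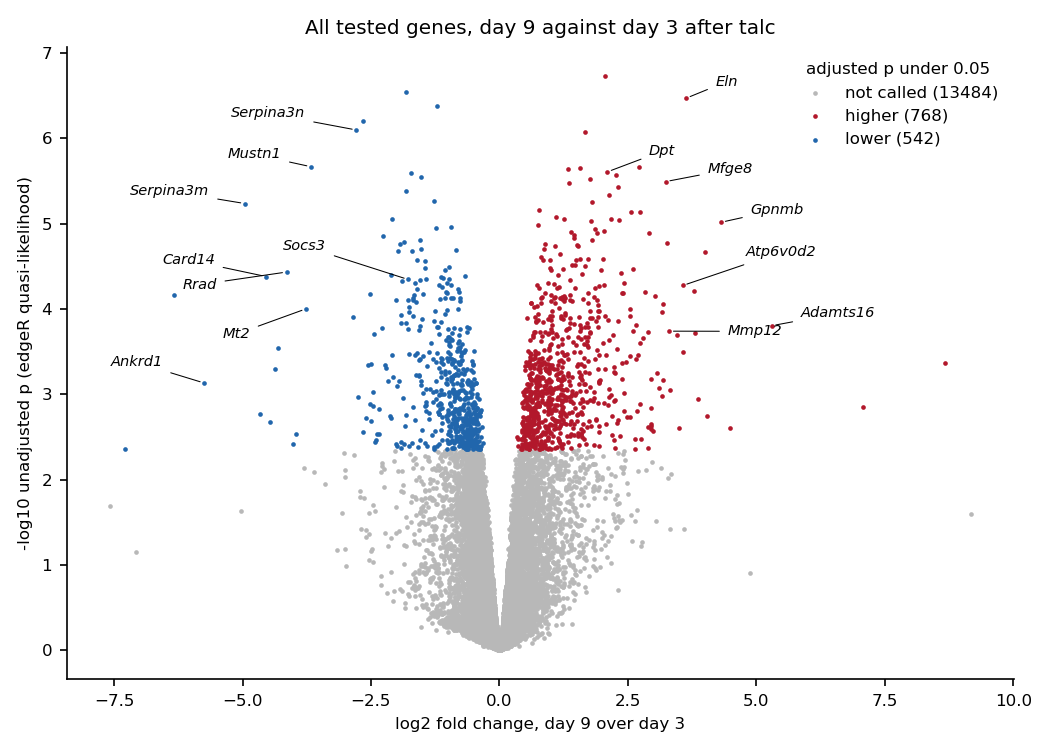
Each point is 1 of 14794 tested genes, with the log2 fold change of day 9 over day 3 on the horizontal axis and -log10 of the unadjusted p on the vertical axis. The 768 genes higher at day 9 are red, the 542 lower genes are blue, and labels mark genes described in the text such as Eln at a log2 fold change of 3.64 and Mustn1 at -3.67.

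The tissue pieces differed in what they contained, and day 3 libraries resembled each other less than day 9 libraries did. Pearson's r of log2 CPM across genes, a description of library pairs, was 0.894 to 0.953 within day 3 and 0.961 to 0.983 within day 9. The mean log2 CPM of 11 alveolar type 2 cell markers was 3.42, 8.03 and 2.55 in the day 3 libraries and 5.39, 6.92 and 7.08 in the day 9 libraries. Sftpc, the surfactant protein that defines this cell, was 51.6, 3156 and 24 CPM at day 3 and 319, 1374 and 1497 CPM at day 9. Day 3 replicate 3 was thus rich in lung epithelial transcripts and the other day 3 libraries had little of them, which goes against a uniform label of lung tissue. The log2 fold change of Sftpc was -0.02 with an adjusted p of 0.996, and 4.88 with an adjusted p of 0.0044 without day 3 replicate 3. Skeletal muscle genes took 11.6%, 6.58% and 7.22% of the counts at day 3 and 8.75%, 8.90% and 7.57% at day 9. Cartilage and bone markers were high in replicate 1 of each day, with a mean log2 CPM of 6.02, 0.80 and 1.96 at day 3 and 6.63, 3.88 and 1.80 at day 9. No gene was called on the lists for alveolar type 1 and 2 cells, airway, endothelium, skeletal and cardiac muscle, fat, cartilage and bone, or red cells. Without day 3 replicate 3, however, 9 of 11 alveolar type 2, 7 of 8 alveolar type 1, 7 of 8 airway and 2 of 12 endothelium genes were called higher and 3 of 13 skeletal muscle genes lower. That setting called 2450 genes higher and 1648 lower in all, in place of 768 and 542. List counts without that library, here and below, are therefore not to be set beside 5.19% and 3.66%. Adding the alveolar type 2 mean to the fit gave 984 higher and 672 lower genes, and adding the skeletal muscle mean gave 1022 and 845. In bulk tissue, fewer cells of a type and less RNA per cell cannot be told apart.

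**Figure D2:**
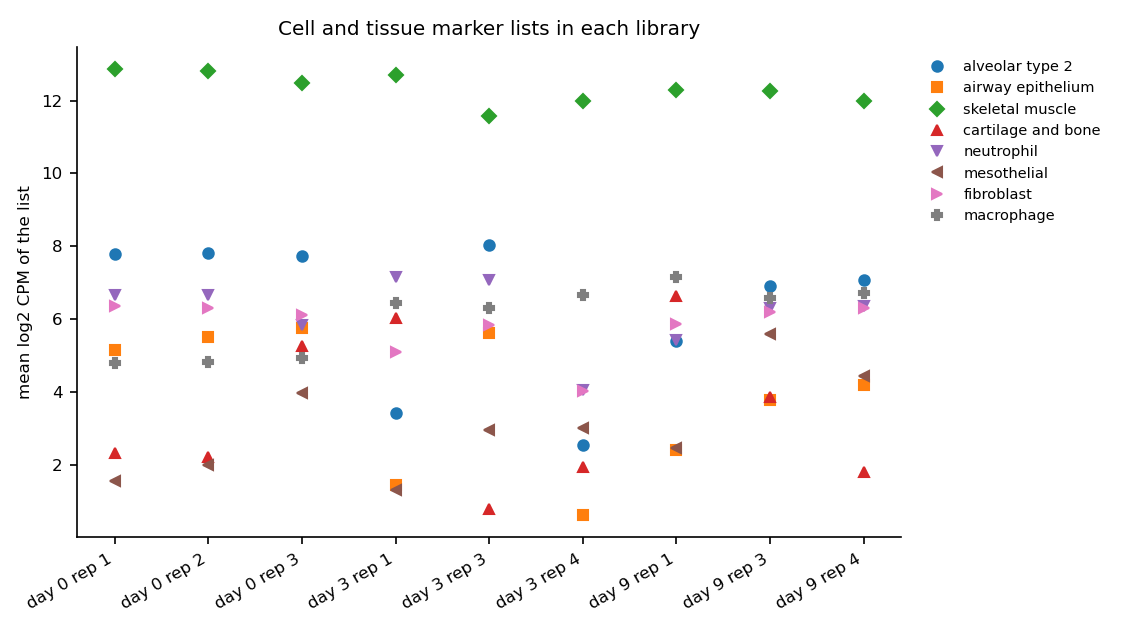
Mean log2 CPM of 8 cell and tissue marker lists (vertical axis) in each of the 9 libraries (horizontal axis), with 1 symbol per list. The alveolar type 2 list spans 2.55 to 8.03 among the day 3 libraries and 5.39 to 7.08 among the day 9 libraries, while the macrophage list spans 6.30 to 7.17 over both days.

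Several elastic fibre genes rose, led by elastin itself. Eln, which encodes the core protein of elastic fibres, was 143, 148 and 132 CPM at day 3 and 1455, 1388 and 2419 CPM at day 9. All day 9 libraries lay above all day 3 libraries, and day 0 was between them at 310.4, 353 and 246 CPM. The gene rose 12.4-fold (log2 fold change 3.64, SE 0.26, adjusted p = 0.00157). Of 13 tested elastic fibre genes 6 rose and none fell, a share of 46.2% beside 5.19% of all tested genes. The list median log2 fold change was 1.19. Mfap2, a microfibril protein, was 11.6, 18.7 and 7.99 CPM at day 3 and 44.5, 41.4 and 60.4 CPM at day 9 and rose (log2 fold change 1.93, SE 0.29, adjusted p = 0.00938). Fbn1, the main microfibril fibrillin, rose by 1.19 ± 0.14 SE on the log2 scale, and Fbln1, a fibulin of basement membranes and elastic fibres, by 0.99 ± 0.13 SE. Both had adjusted p under 0.05 without any single library. Mfap5 and Ltbp2, which encode another microfibril protein and a latent TGF-beta binding protein, rose by 1.33 and 1.70 with adjusted p of 0.0186 and 0.0252. The Mfap5 call ended without day 9 replicate 4 (adjusted p up to 0.0589), and that of Ltbp2 without day 0 replicate 2, day 3 replicate 1 or day 9 replicates 3 or 4 (adjusted p up to 0.0827). The count of 6 was 10 without day 3 replicate 3.

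Collagen chains rose as a broad group. Of 21 tested chains 12 rose and none fell, a share of 57.1% beside 5.19% of all tested genes, and the median log2 fold change was 1.57. In 17 of 21 chains the day 9 libraries all lay above those of day 3, beside 14.4% of all tested genes. The opposite order, with all day 9 libraries below, was seen in 14.1% of tested genes and in no chain. Col6a1 and Col6a2, chains of the beaded-filament collagen VI that surrounds cells, moved in parallel. Col6a1 was 359, 263 and 210.1 CPM at day 3 and 930.1, 1038 and 1064 CPM at day 9, with no overlap between days (log2 fold change 1.87, SE 0.21, adjusted p = 0.00451). Col6a2 was 355, 251 and 211 CPM at day 3 and 919, 1023 and 1096 CPM at day 9 (log2 fold change 1.90, SE 0.21, adjusted p = 0.00456). Col14a1, a collagen that sits on fibril surfaces, was 142, 75.6 and 97.6 CPM at day 3 and 434, 431 and 548 CPM at day 9, and every day 9 library exceeded 3 times the highest day 3 library (log2 fold change 2.17, SE 0.23, adjusted p = 0.00416). Col24a1, a minor fibrillar collagen, was 13.6, 5.87 and 2.74 CPM at day 3 and 60, 119.7 and 66.6 CPM at day 9 and had the largest log2 fold change of the list (log2 fold change 3.46, SE 0.56, adjusted p = 0.0114).

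The abundant interstitial collagens showed the same direction with more spread at day 3. Col3a1, the collagen of early granulation tissue, was 5649, 2792 and 3501 CPM at day 3 and 10762, 10338 and 11034 CPM at day 9 (log2 fold change 1.43, SE 0.30, adjusted p = 0.0258). Col1a2, a chain of type I collagen, was 4406, 1578 and 1623 CPM at day 3 and 8322, 7902 and 7575 CPM at day 9 (log2 fold change 1.65, SE 0.41, adjusted p = 0.0429). Its partner Col1a1 was 5850.5, 1888 and 2109.6 CPM at day 3 and 9624, 8060.2 and 8403 CPM at day 9, also without overlap, but had an adjusted p of 0.0788. In both type I chains the highest day 3 library was replicate 1, the day 3 library with the highest cartilage and bone markers, whose part in these values was not tested. Col5a2, a chain that regulates fibril diameter, rose by 1.57 ± 0.27 SE on the log2 scale. The basement membrane chain Col4a1 was 729, 828 and 890.5 CPM at day 3 and 838, 949 and 1047 CPM at day 9, and the days overlapped (log2 fold change 0.21, SE 0.15, adjusted p = 0.407). The Col3a1 call ended without day 0 replicates 1 or 2, day 3 replicate 4 or day 9 replicates 1, 3 or 4 (adjusted p up to 0.0735), and the Col1a2 call without day 0 replicates 1, 2 or 3, day 3 replicate 4 or day 9 replicates 1, 3 or 4 (adjusted p up to 0.102). Leaving out any 1 day 9 library gave 7 called chains.

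**Figure D3:**
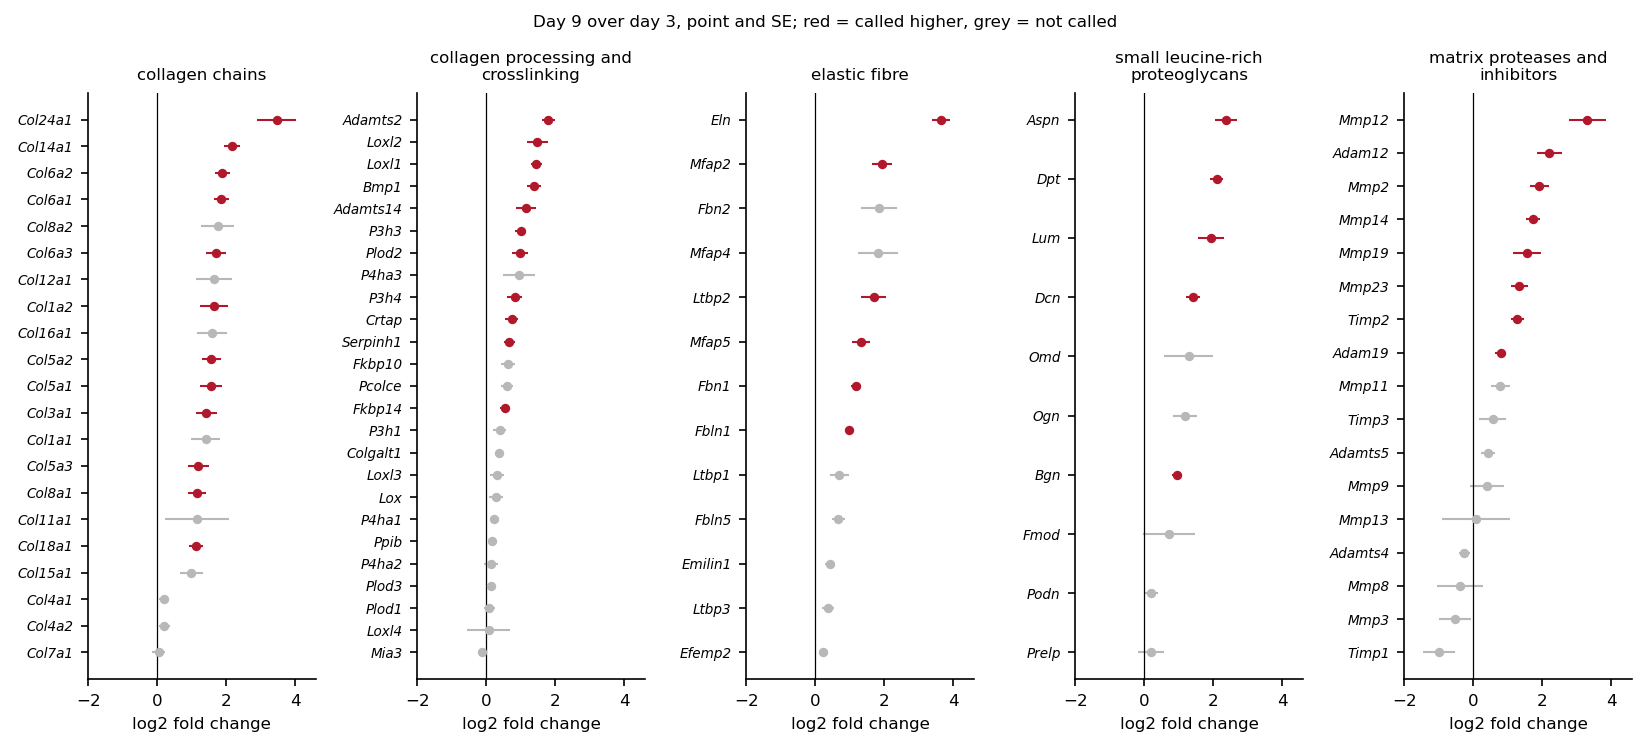
Log2 fold change of day 9 over day 3 (horizontal axis, point with SE) for every tested gene of 5 matrix lists, ordered within each list. Red points are the genes called higher, grey points were not called, and Eln at 3.64, Col24a1 at 3.46 and Mmp12 at 3.31 lie farthest to the right.

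Several enzymes that process and crosslink collagen were also higher. Of 25 tested genes 11 rose and none fell, a share of 44% beside 5.19% of all tested genes. The list median log2 fold change was 0.60. Adamts2, the protease that removes the amino-terminal propeptide of procollagen, was 81.9, 55.4 and 55.4 CPM at day 3 and 202, 217 and 254 CPM at day 9 (log2 fold change 1.80, SE 0.18, adjusted p = 0.00356). Bmp1, which removes the carboxy-terminal propeptide, rose by 1.38 ± 0.21 SE on the log2 scale. Loxl1, a lysyl oxidase that acts mainly on elastin, was 115, 88.7 and 127 CPM at day 3 and 264, 298 and 349 CPM at day 9 and rose (log2 fold change 1.46, SE 0.17, adjusted p = 0.00491). Lox, the founding lysyl oxidase, was 232, 143 and 175 CPM at day 3 and 189.8, 239 and 237 CPM at day 9, and its days overlapped (log2 fold change 0.28, SE 0.20, adjusted p = 0.418). P3h3, a prolyl hydroxylase family member of the procollagen-modifying machinery in the endoplasmic reticulum, rose by 1.00 ± 0.16 SE. Serpinh1, the collagen chaperone HSP47, was 688, 458 and 547 CPM at day 3 and 853, 945 and 903 CPM at day 9 (log2 fold change 0.67, SE 0.16, adjusted p = 0.0381), a call that ended without day 0 replicates 1, 2 or 3, day 3 replicate 4 or day 9 replicates 1, 3 or 4 (adjusted p up to 0.114). The count of 11 fell to 5 when any 1 day 0 library was left out, and was 4 without day 3 replicate 4 and 6, 4 and 4 without day 9 replicate 1, 3 and 4.

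Some adhesive and matricellular glycoproteins, which bind cells to matrix and are often re-expressed in wounds, also rose. Of 18 tested genes 7 rose and none fell, a share of 38.9% beside 5.19% of all tested genes. The list median log2 fold change was 0.96. Tnc, tenascin C, was 125, 135 and 70.1 CPM at day 3 and 584, 657 and 697 CPM at day 9 and 141, 141 and 96.2 CPM at day 0. The day 9 libraries lay close together and far above both earlier days (log2 fold change 2.56, SE 0.27, adjusted p = 0.00403). Postn, periostin, was 327, 263 and 229 CPM at day 3 and 1234, 887 and 1109 CPM at day 9 (log2 fold change 1.98, SE 0.25, adjusted p = 0.00645). Day 0 Postn was 571, 638 and 355 CPM, above day 3, so the increase started from a level below that at 30 min. Thbs3, a thrombospondin, rose by 1.51 ± 0.18 SE on the log2 scale. Fn1, fibronectin, was 1625, 1576 and 1472 CPM at day 3 and 2689.9, 3969 and 2665 CPM at day 9 without overlap and had an adjusted p of 0.0566. Spp1, osteopontin, was 1658, 1284 and 807 CPM at day 3 and 2518, 2190.2 and 1180.4 CPM at day 9 with overlapping days (log2 fold change 0.65, SE 0.39, adjusted p = 0.329). The count of 7 was 3 without day 9 replicate 3 or 4.

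Small leucine-rich proteoglycans coat collagen fibrils and regulate their assembly. On the list kept for them, 5 of 10 tested genes rose, a share of 50% beside 5.19% of all tested genes. The list median log2 fold change was 1.23. Dpt, dermatopontin, a matrix protein outside this proteoglycan family, was 108, 90.5 and 81.5 CPM at day 3 and 452, 300.1 and 451 CPM at day 9 (log2 fold change 2.10, SE 0.19, adjusted p = 0.00276). Aspn, asporin, was 64.1, 34.4 and 34.5 CPM at day 3 and 242, 179.9 and 267 CPM at day 9 (log2 fold change 2.37, SE 0.31, adjusted p = 0.00678). In both genes the lowest day 9 library was replicate 3, and it was still above every day 3 library. Dcn, decorin, was 608, 382 and 365 CPM at day 3 and 1188, 1195 and 1236 CPM at day 9 (log2 fold change 1.42, SE 0.20, adjusted p = 0.00771). Bgn, biglycan, rose by 0.94 ± 0.14 SE on the log2 scale. Lum, lumican, rose by 1.93 ± 0.38 SE, and its call ended without day 9 replicate 4 (adjusted p up to 0.0626).

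Several proteases that degrade matrix rose at the same time. Of 17 tested proteases and inhibitors 8 rose and none fell, a share of 47.1% beside 5.19% of all tested genes. The list median log2 fold change was 0.79. Mmp12, a macrophage elastase, was 94.6, 156 and 52.2 CPM at day 3 and 1222, 793 and 986 CPM at day 9, and 4.39, 1.87 and 1.07 CPM at day 0 (log2 fold change 3.31, SE 0.53, adjusted p = 0.011). Mmp2, a gelatinase made by fibroblasts, was 215, 132 and 101 CPM at day 3 and 594, 534 and 565 CPM at day 9 (log2 fold change 1.92, SE 0.28, adjusted p = 0.00884). Mmp14, the membrane protease that activates the Mmp2 proenzyme, was 186, 147 and 125 CPM at day 3 and 442, 548 and 525 CPM at day 9 (log2 fold change 1.73, SE 0.21, adjusted p = 0.00578). These 3 proteases had no overlap between days. The tissue inhibitors differed from each other. Timp2 was 261, 316 and 181 CPM at day 3 and 609, 578 and 644 CPM at day 9 and rose (log2 fold change 1.27, SE 0.19, adjusted p = 0.00931), whereas Timp1 was 137, 147 and 203 CPM at day 3 and 38.2, 150.3 and 55.5 CPM at day 9, with overlap (log2 fold change -0.99, SE 0.47, adjusted p = 0.215). Adam12, a protease of activated mesenchymal cells, rose by 2.20 ± 0.36 SE on the log2 scale. The count of 8 was 5 without day 9 replicate 4.

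The TGF-beta system contributed ligands and regulators. Tgfb2, a TGF-beta ligand that acts on fibroblasts, was 16.6, 16.9 and 25.3 CPM at day 3 and 47.2, 58.2 and 59.6 CPM at day 9 (log2 fold change 1.49, SE 0.18, adjusted p = 0.00578). Tgfb1, its best-known relative, was 83.4, 74 and 90.3 CPM at day 3 and 124, 86.2 and 93.5 CPM at day 9, and the days overlapped (log2 fold change 0.29, SE 0.15, adjusted p = 0.246). Of 19 tested TGF-beta and activin genes 6 rose (31.6%) and 1 fell (5.26%), beside 5.19% and 3.66% of all tested genes. The list median log2 fold change was 0.44. Itgav, the integrin subunit that helps to release latent TGF-beta, rose by 0.71 ± 0.11 SE on the log2 scale. Fstl1, a secreted follistatin-like protein, was 445, 221 and 300.4 CPM at day 3 and 926, 1147 and 1138 CPM at day 9 (log2 fold change 1.73, SE 0.24, adjusted p = 0.00765). Inhbb, an activin subunit, was 18, 22.3 and 15.7 CPM at day 3 and 8.62, 11.5 and 10.3 CPM at day 9 and fell (log2 fold change -0.88, SE 0.18, adjusted p = 0.0227), a call that ended without day 9 replicates 1 or 4 (adjusted p up to 0.099). The count of 6 was 3 without day 9 replicate 3 or 4 and 10 without day 3 replicate 3.

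Growth factor systems gave smaller groups. Igf1, insulin-like growth factor 1, was 87.1, 49.8 and 63.5 CPM at day 3 and 154, 136 and 148 CPM at day 9 (log2 fold change 1.13, SE 0.18, adjusted p = 0.0116). It was 1 of 2 genes called higher among 10 of that system, a share of 20% beside 5.19% of all tested genes. Pdgfrb, a receptor of mural cells and fibroblasts, was 77.8, 89.5 and 77 CPM at day 3 and 117, 134 and 133 CPM at day 9 (log2 fold change 0.65, SE 0.11, adjusted p = 0.0117). Of 15 tested PDGF, EGF and FGF genes 5 rose and none fell, a share of 33.3% beside 5.19% of all tested genes. The list median log2 fold change was 0.32. That count of 5 was 1 without day 9 replicate 4, 3 without day 3 replicate 4 or day 9 replicate 1 or 3, and 8 without day 3 replicate 3. The count of 2 was 1 without day 3 replicate 1 or day 9 replicate 3 or 4.

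Of 13 fibroblast identity markers 3 rose, Dcn, Col1a2 and Thy1, a share of 23.1% beside 5.19% of all tested genes, with a median log2 fold change of 0.32. Thy1, a surface glycoprotein of fibroblasts and other cells, was 29, 21.3 and 29.2 CPM at day 3 and 68.1, 49.1 and 67.9 CPM at day 9 (log2 fold change 1.22, SE 0.17, adjusted p = 0.00766). Pdgfra, a receptor shared by most fibroblasts, was 126, 154 and 63 CPM at day 3 and 96.2, 190.4 and 141 CPM at day 9, with day 3 replicate 4 lowest and overlapping days (log2 fold change 0.32, SE 0.33, adjusted p = 0.591). The contractile gene Acta2 was 111, 96 and 136 CPM at day 3 and 116, 223 and 246 CPM at day 9, again with overlap (log2 fold change 0.77, SE 0.27, adjusted p = 0.111). Mesothelial markers had a median log2 fold change of 1.90, but none of 11 was called. Their mean log2 CPM was 1.32, 2.95 and 3.02 at day 3 and 2.48, 5.58 and 4.43 at day 9, and it overlapped. The fibroblast count was 7 without day 3 replicate 3 and 5 without day 3 replicate 1.

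**Figure D4:**
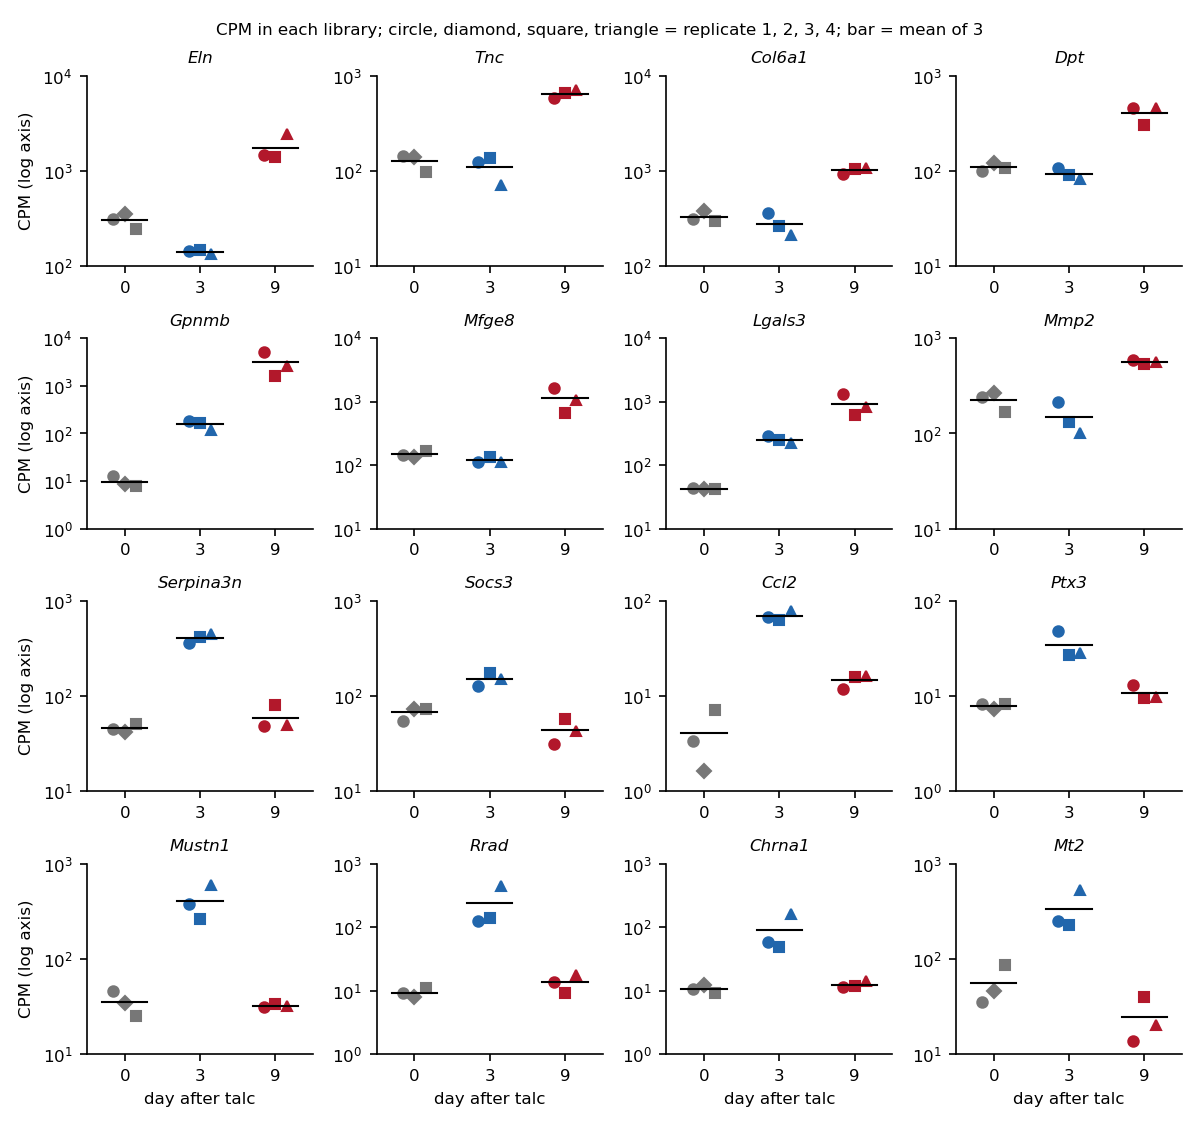
CPM of 16 genes on log axes (vertical) by day after talc (horizontal), with 1 point per library, the replicate number as the symbol and the mean of 3 libraries as a bar. In the first 8 panels all day 9 libraries lie above all day 3 libraries, as for Tnc at 584 to 697 against 70.1 to 135 CPM, and in the last 8 panels all lie below, as for Serpina3n at 48.1 to 80.6 against 358 to 454 CPM.

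Macrophage genes linked to phagocytosis and lipid handling formed the other large group that was higher at day 9. Of 17 tested genes of scar-associated and lipid-associated macrophages 8 rose and none fell, a share of 47.1% beside 5.19% of all tested genes. The list median log2 fold change was 1.18. Gpnmb, a transmembrane glycoprotein of phagocytic macrophages, was 187, 166 and 121 CPM at day 3 and 5240.0, 1603 and 2614 CPM at day 9, after 13, 8.55 and 7.71 CPM at day 0. Replicate 1 was the highest at day 9, and the lowest day 9 library was far above all of day 3 (log2 fold change 4.32, SE 0.47, adjusted p = 0.0042). Mfge8, a secreted bridge between dying cells and phagocytes, was 112, 134 and 114 CPM at day 3 and 1641, 674 and 1083 CPM at day 9 (log2 fold change 3.24, SE 0.31, adjusted p = 0.00276). Itgax, the integrin CD11c, was 24.2, 45.6 and 33.5 CPM at day 3 and 371, 177 and 232 CPM at day 9 (log2 fold change 2.92, SE 0.33, adjusted p = 0.00456).

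The same order of day 9 libraries recurred in several of these genes. Lgals3, galectin 3, was 286, 249.6 and 221 CPM at day 3 and 1303, 619 and 838 CPM at day 9 (log2 fold change 1.87, SE 0.26, adjusted p = 0.00743). Trem2, a lipid-sensing receptor, was 38.2, 25.4 and 39.2 CPM at day 3 and 156, 72.5 and 113 CPM at day 9 (log2 fold change 1.73, SE 0.27, adjusted p = 0.0106). Fabp5, a fatty acid binding protein, rose by 1.76 ± 0.28 SE on the log2 scale. In all 3, replicate 1 was the highest of the day 9 libraries and replicate 3 the lowest, without overlap with day 3.

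Of the general macrophage markers, Cd68 and Cd84 rose. Cd68, a lysosomal glycoprotein, was 124, 91 and 141 CPM at day 3 and 395, 189 and 237 CPM at day 9 (log2 fold change 1.21, SE 0.27, adjusted p = 0.0298), and its call ended without day 0 replicates 1, 2 or 3, day 3 replicate 1 or day 9 replicate 4 (adjusted p up to 0.0646). Adgre1, the F4/80 antigen, was 72.4, 59.7 and 91.2 CPM at day 3 and 152, 91.2 and 115 CPM at day 9 and had an adjusted p of 0.0793. Cd68 and Cd84 were 2 of 13 tested markers, a share of 15.4% beside 5.19% of all tested genes. The list had a median log2 fold change of 0.62 and a mean log2 CPM of 6.43, 6.30 and 6.66 at day 3 and 7.17, 6.58 and 6.72 at day 9. The count of 2 was 1 when a day 0 library, day 3 replicate 1 or day 9 replicate 4 was left out, and 4 without day 3 replicate 3.

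Some lysosomal genes rose as well. Of 18 tested lysosome and V-ATPase genes 9 rose and none fell, a share of 50% beside 5.19% of all tested genes. The list median log2 fold change was 0.60. Lipa, lysosomal acid lipase, was 85.7, 69.5 and 67.4 CPM at day 3 and 469, 181 and 272 CPM at day 9 (log2 fold change 2.05, SE 0.31, adjusted p = 0.00938). Gla, the lysosomal alpha-galactosidase, was 15.8, 12.3 and 14.4 CPM at day 3 and 68.7, 32.5 and 43.2 CPM at day 9 (log2 fold change 1.76, SE 0.28, adjusted p = 0.011). Atp6v0d2, a proton pump subunit of osteoclasts and macrophages, was 17.3, 19.2 and 6.84 CPM at day 3 and 280.1, 98.7 and 138 CPM at day 9 (log2 fold change 3.57, SE 0.48, adjusted p = 0.00737). All of these rose without overlap and were highest in day 9 replicate 1. Ctss, cathepsin S, rose by 1.33 ± 0.24 SE on the log2 scale, while Ctsb, cathepsin B, was 1654, 1134 and 2032 CPM at day 3 and 4005, 2104 and 2516 CPM at day 9 with an adjusted p of 0.105. Dcstamp, required for the fusion of osteoclasts and giant cells, was 1.06, 1.59 and 0.761 CPM at day 3 and 4.92, 3.90 and 3.57 CPM at day 9 (log2 fold change 1.85, SE 0.38, adjusted p = 0.0224), a call that ended without day 3 replicate 1 or day 9 replicates 1, 3 or 4 (adjusted p up to 0.0676). The lysosome count of 9 was 4 without day 3 replicate 1 and 5 without day 9 replicate 1 or 4.

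The promoter of Gla is shown because 3 of the 12 lysosome genes with a promoter sequence, Atp6v1a, Ctsa and Gla, held the palindrome TCACGTGA in the 250 bases before the start. This sequence is the core of the element read by the lysosomal regulators TFEB and its relatives. It was found, reading both strands, in 0.785% of 32851 promoters. The motifs shown here and below were chosen after expression values were known, and a match describes letters only. List counts are of genes with a match in any of their promoters, whereas shares of all are of promoters, so the units differ. The Gla sequence is from RefSeq on GRCm38.p6, minus strand, chrX:134601006-134601255, with both matches in capitals.
Gla: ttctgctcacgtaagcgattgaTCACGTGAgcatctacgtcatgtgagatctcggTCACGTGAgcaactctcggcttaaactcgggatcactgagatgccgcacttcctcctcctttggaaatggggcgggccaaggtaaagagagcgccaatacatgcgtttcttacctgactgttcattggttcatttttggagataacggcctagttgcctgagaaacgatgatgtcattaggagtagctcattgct

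Some monocyte recruitment genes fell over the same interval. Of 13 tested monocyte and eosinophil chemokines 4 fell and none rose, a share of 30.8% beside 3.66% of all tested genes, with a median log2 fold change of -0.86. Ccl2, the main ligand of the monocyte receptor Ccr2, was 67.3, 63.7 and 77.7 CPM at day 3 and 12, 15.8 and 16.5 CPM at day 9, from 3.39, 1.62 and 7.15 CPM at day 0. Its day 9 libraries were below all of day 3 and above all of day 0 (log2 fold change -2.24, SE 0.41, adjusted p = 0.0164). Ccr2 itself was 92.8, 87.9 and 134 CPM at day 3 and 50.1, 53.4 and 58.4 CPM at day 9 (log2 fold change -0.96, SE 0.17, adjusted p = 0.0149). Ccl24, an eosinophil chemokine made by macrophages, was 36.9, 42.3 and 129 CPM at day 3 and 2.03, 6.20 and 1.60 CPM at day 9, with day 3 replicate 4 highest (log2 fold change -4.36, SE 0.81, adjusted p = 0.0172). The Ccl2 call ended without day 9 replicates 1, 3 or 4 (adjusted p up to 0.066), and the calls of Ccr2 and Ccl24 ended without day 9 replicates 1 or 4, with adjusted p up to 0.0597 and up to 0.0712. The count of 4 was 0 without day 9 replicate 1 or 4, 1 without day 9 replicate 3, 2 without day 0 replicate 2 and 7 without day 3 replicate 3.

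Few genes of alternative macrophage activation were called, and markers of large cavity macrophages went both ways. Of 12 tested alternative activation genes 1 fell (8.33%) and none rose, beside 3.66% and 5.19% of all tested genes. Their median log2 fold change was -0.80. That list had no called gene without day 9 replicate 4 and 3 lower without day 9 replicate 3. Cd163, a haemoglobin scavenger receptor, was 50, 32.7 and 36.7 CPM at day 3 and 10.4, 15.9 and 13.8 CPM at day 9 and fell (log2 fold change -1.57, SE 0.25, adjusted p = 0.0109), a call that ended without day 9 replicate 4 (adjusted p up to 0.052). Arg1, arginase 1, was 309, 295 and 496 CPM at day 3 and 7.39, 156 and 25.3 CPM at day 9, without overlap and with wide spread at day 9 (log2 fold change -2.54, SE 0.93, adjusted p = 0.124). Of 8 tested markers of large cavity macrophages 1 rose (12.5%) and 2 fell (25%), beside 5.19% and 3.66% of all tested genes. Gata6, a transcription factor of these cells that mesothelium and other tissues also express, was 8.41, 13 and 6.39 CPM at day 3 and 26.6, 49 and 47.4 CPM at day 9 (log2 fold change 2.14, SE 0.35, adjusted p = 0.0121). Selp, P-selectin, which platelets and endothelium also make, was 30, 19.5 and 27.5 CPM at day 3 and 9.92, 7.07 and 10.6 CPM at day 9 and fell (log2 fold change -1.48, SE 0.21, adjusted p = 0.00765). Prg4, lubricin, was 121, 70.1 and 101 CPM at day 3 and 28.1, 34.8 and 12.4 CPM at day 9 and fell (log2 fold change -1.95, SE 0.38, adjusted p = 0.0197), a call that ended without day 9 replicate 1 (adjusted p up to 0.0607). For cavity macrophage markers, the higher count of 1 was 2 without day 3 replicate 3, and the lower count of 2 was 1 without day 9 replicate 1.

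Socs3, Serpina3n, Serpina3m and Ptx3 fell. Interleukin 6 signalling is known to induce Socs3 and acute phase genes. Socs3, a feedback inhibitor of that signalling, was 127, 177 and 151 CPM at day 3 and 31.4, 57.9 and 43.5 CPM at day 9, and 55.2, 73.3 and 73.9 CPM at day 0. The day 9 libraries were below every day 3 library and all but 1 of them also below every day 0 library (log2 fold change -1.78, SE 0.24, adjusted p = 0.00712). Serpina3n, an acute phase protease inhibitor, was 358, 418 and 454 CPM at day 3 and 48.1, 80.6 and 49.5 CPM at day 9 (log2 fold change -2.79, SE 0.22, adjusted p = 0.00179). Ptx3, a pattern-recognition pentraxin, was 48.4, 27 and 28.4 CPM at day 3 and 13, 9.64 and 9.90 CPM at day 9 (log2 fold change -1.67, SE 0.24, adjusted p = 0.00769). Serpina3m, a close relative of Serpina3n that may share reads with it, was 8.41, 11.6 and 12.2 CPM at day 3 and 0.579, 0.359 and 0.0728 CPM at day 9 (log2 fold change -4.96, SE 0.51, adjusted p = 0.00359). These 4 calls did not depend on any single library.

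Other inflammatory genes were lower at day 9 with adjusted p closer to or past the threshold. Il6 itself was 6.54, 9.75 and 5.93 CPM at day 3 and 0.217, 0.974 and 0.0728 CPM at day 9 (log2 fold change -4.02, SE 1.03, adjusted p = 0.0464), and its call ended without day 0 replicates 1 or 2, day 3 replicates 1 or 4 or day 9 replicates 1, 3 or 4 (adjusted p up to 0.15). Csf3, granulocyte colony-stimulating factor, was 1.49, 1.59 and 0.684 CPM at day 3 and 0, 0.0513 and 0.0728 CPM at day 9, where the day 9 values rest on 2 reads in all (log2 fold change -4.66, SE 1.04, adjusted p = 0.0298). The Csf3 call ended without day 9 replicates 1, 3 or 4 (adjusted p up to 0.103), and the gene was not tested without day 3 replicate 1. Cxcl3, a neutrophil chemokine, was 15.7, 12.6 and 15.4 CPM at day 3 and 1.81, 4.61 and 4.44 CPM at day 9 (log2 fold change -2.0, SE 0.51, adjusted p = 0.0476), a call that ended without day 0 replicates 1 or 3, day 3 replicates 1 or 4 or day 9 replicates 1, 3 or 4 (adjusted p up to 0.137). Saa3, an acute phase protein made in tissue, was 519.6, 679 and 562 CPM at day 3 and 69.9, 403 and 132 CPM at day 9 without overlap and had an adjusted p of 0.126. Of 7 neutrophil chemokines and granulocyte factors 2 fell (28.6%), with a median log2 fold change of -1.36. Of 12 acute phase and antimicrobial genes 3 fell (25%), with a median of -1.33. Among all tested genes 3.66% fell. The first count was 0 without day 3 replicate 1 or day 9 replicate 1 or 4, and 1 without day 0 replicate 1 or 3, day 3 replicate 4 or day 9 replicate 3. The second was 1 without day 0 replicate 1 or 2 or day 9 replicate 4.

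Not every inflammatory gene followed. Tnfrsf1b, a tumour necrosis factor receptor, was 95.8, 73.7 and 89.2 CPM at day 3 and 179, 128 and 142 CPM at day 9 and rose (log2 fold change 0.80, SE 0.15, adjusted p = 0.0179). Il1rn, the interleukin 1 receptor antagonist, was 67, 46.5 and 54.8 CPM at day 3 and 142, 77.6 and 77.2 CPM at day 9, also higher without overlap, with an adjusted p of 0.0858. Neutrophil content did not give a called change. The alarmin S100a8 was 557, 523 and 72 CPM at day 3 and 102, 229 and 255 CPM at day 9 with the lowest value in day 3 replicate 4 (log2 fold change -0.98, SE 0.67, adjusted p = 0.395), and none of 11 neutrophil markers was called. Their mean log2 CPM was 7.16, 7.07 and 4.05 at day 3 and 5.42, 6.32 and 6.35 at day 9.

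Promoters of a chemokine and of Socs3 are shown to place 2 fallen genes, Cxcl3 and Socs3, beside motifs of known regulators. The motif GGANTTTCC, read by NF-kappaB, was searched on either strand. It was found in 3 of 6 neutrophil chemokine and granulocyte factor genes with a promoter sequence, Cxcl1, Cxcl2 and Cxcl3, and in 1.07% of all promoters. Of these 3 genes only Cxcl3 was called. Matches with a further G before them were in promoters of the same 3 list genes and in 0.356% of all promoters. The motif TTCNNNGAA, read by STAT proteins, was found in 3 of 15 cytokine list genes with a promoter sequence, including Socs3, and in 7.02% of all promoters. The other 2 genes with it were Il1r2, which was not called, and Tnfrsf1b, which rose. The sequences are from RefSeq on GRCm38.p6, for Cxcl3 plus strand, chr5:90785851-90786100, and for Socs3 minus strand, chr11:117969367-117969616, with matches in capitals.
Cxcl3: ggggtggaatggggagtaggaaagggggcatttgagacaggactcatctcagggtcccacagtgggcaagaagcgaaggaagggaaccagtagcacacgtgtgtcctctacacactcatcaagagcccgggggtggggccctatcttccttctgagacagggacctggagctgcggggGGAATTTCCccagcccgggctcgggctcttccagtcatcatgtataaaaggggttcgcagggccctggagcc
Socs3: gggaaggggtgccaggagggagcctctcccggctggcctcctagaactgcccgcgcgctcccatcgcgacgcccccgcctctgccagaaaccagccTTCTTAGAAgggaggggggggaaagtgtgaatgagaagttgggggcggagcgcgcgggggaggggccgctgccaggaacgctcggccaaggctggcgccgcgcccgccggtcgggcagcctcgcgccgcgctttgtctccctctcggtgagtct

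Lymphocyte, antigen presentation and interferon genes gave few calls. No gene was called on the lists for T cells, dendritic cells, B and plasma cells, cytotoxic cells or class II antigen presentation. Without day 3 replicate 3, 5 of 10 class II genes and 4 of 11 T cell genes were called higher, and with the skeletal muscle mean as a covariate these were 5 and 1. Over all genes these settings called 2450 and 1022 higher, in place of 768. The T cell list had a median log2 fold change of 1.15. Jchain, the joining chain of plasma cell immunoglobulin, was 38.2, 4.35 and 1.06 CPM at day 3 and 146, 112 and 105 CPM at day 9, above day 3 in every library (log2 fold change 3.05, SE 1.18, adjusted p = 0.141). H2-Aa, a class II chain, was 94, 136 and 95.7 CPM at day 3 and 197, 149 and 169 CPM at day 9 (log2 fold change 0.66, SE 0.22, adjusted p = 0.0931). Of 13 interferon response genes 1 rose, a share of 7.69% beside 5.19% of all tested genes. It was Cxcl9, a chemokine for T cells, at 2.37, 0.940 and 1.29 CPM at day 3 and 6.66, 5.54 and 5.53 CPM at day 9 (log2 fold change 1.94, SE 0.47, adjusted p = 0.0382). The Cxcl9 call ended without day 0 replicate 1, day 3 replicate 4 or day 9 replicates 1, 3 or 4 (adjusted p up to 0.0961). Without day 3 replicate 3, where 2450 genes in all were called higher, the interferon count was 3.

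Coagulation and fibrinolysis genes moved in both directions. Of 17 tested, 3 were higher (17.6%) and 2 lower (11.8%), beside 5.19% and 3.66% of all tested genes. Plat, tissue plasminogen activator, was 37.4, 39.8 and 24.6 CPM at day 3 and 63.5, 86 and 78.6 CPM at day 9 and rose (log2 fold change 1.16, SE 0.21, adjusted p = 0.016). F7, coagulation factor VII, rose by 1.14 ± 0.22 SE on the log2 scale. The Plat call ended without day 9 replicate 4 (adjusted p up to 0.0536). The count of 3 was 1 without day 9 replicate 4 and 5 without day 3 replicate 3, and the count of 2 was 0 without day 0 replicate 1 or 2, day 3 replicate 1 or day 9 replicate 4 and 1 without day 0 replicate 3, day 3 replicate 4 or day 9 replicate 1 or 3.

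Muscle made up part of the tissue, and a set of muscle stress and denervation genes was high at day 3 and low at day 9. Mustn1, a small nuclear protein of regenerating muscle, was 375, 260.2 and 588 CPM at day 3 and 31.1, 33.3 and 31.7 CPM at day 9, against 45.6, 34.7 and 25.4 CPM at day 0. The day 9 libraries were within 3 CPM of each other and far below day 3 (log2 fold change -3.67, SE 0.33, adjusted p = 0.00276). Chrna1, the acetylcholine receptor subunit that denervated muscle induces, was 58.5, 48.5 and 161 CPM at day 3 and 11.5, 11.6 and 14.1 CPM at day 9 (log2 fold change -2.85, SE 0.43, adjusted p = 0.00938). Rrad, a small GTPase that restrains calcium channels, was 123, 141 and 447 CPM at day 3 and 13.8, 9.13 and 17.4 CPM at day 9 (log2 fold change -4.14, SE 0.54, adjusted p = 0.00667). Day 3 replicate 4 was the highest library for all 3 genes, and the other day 3 libraries were still above day 9.

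Of 14 tested muscle denervation and regeneration genes 4 fell and none rose, a share of 28.6% beside 3.66% of all tested genes. The list median log2 fold change was -1.87. Musk, the kinase that clusters acetylcholine receptors, was 16.2, 15.2 and 45.6 CPM at day 3 and 5.50, 5.33 and 5.82 CPM at day 9 (log2 fold change -2.21, SE 0.41, adjusted p = 0.0171), and its call ended without day 9 replicates 1, 3 or 4 (adjusted p up to 0.0684). Myog, the myogenic factor that drives receptor genes, was 14.9, 26.3 and 288 CPM at day 3 and 9.12, 4.61 and 9.90 CPM at day 9, with nearly all of its level in day 3 replicate 4 (log2 fold change -3.81, SE 1.09, adjusted p = 0.0652). Ankrd1, a stretch-responsive ankyrin repeat protein, was 120.2, 216 and 1647 CPM at day 3 and 12.9, 8.51 and 15.6 CPM at day 9 (log2 fold change -5.75, SE 1.13, adjusted p = 0.0202), a call that ended without day 9 replicates 1, 3 or 4 (adjusted p up to 0.079). Leaving out any 1 day 9 library gave 2, and the count was 8 without day 3 replicate 3. None of 13 skeletal muscle markers was called, and Myh4, a fast myosin heavy chain, was 28467, 13906 and 6683 CPM at day 3 and 21037, 21556 and 14928 CPM at day 9 with overlapping days (log2 fold change 0.23, SE 0.49, adjusted p = 0.817).

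Further muscle-associated genes fell from high levels. Tacc2, a coiled-coil protein, was 1781, 939 and 1839 CPM at day 3 and 394, 338 and 330.3 CPM at day 9 (log2 fold change -2.10, SE 0.28, adjusted p = 0.00697). Ankrd23, a sarcomeric ankyrin repeat protein, was 3902, 2183 and 3466 CPM at day 3 and 869, 1100.3 and 1041 CPM at day 9 (log2 fold change -1.67, SE 0.23, adjusted p = 0.00765). Nrap, a protein of muscle attachment sites, was 2209, 1229.9 and 2499 CPM at day 3 and 616, 579.7 and 524 CPM at day 9 (log2 fold change -1.79, SE 0.26, adjusted p = 0.00769). The lowest day 3 library was replicate 3 in all of them, and it was above all day 9 libraries. That library also had the lowest share of counts from skeletal muscle genes, at 6.58%, and the part of muscle content in these values was not tested.

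The Chrna1 promoter is shown because its E-boxes of the form CAGCTG, read by myogenic factors, lie close to the start. This motif was in 3 of 10 muscle list genes with a promoter sequence, Chrna1, Chrng and Musk, and in 13% of all promoters. Chrng was not called. The sequence is from RefSeq on GRCm38.p6, minus strand, chr2:73580339-73580588, with both matches in capitals at 92 and 44 bases before the start.
Chrna1: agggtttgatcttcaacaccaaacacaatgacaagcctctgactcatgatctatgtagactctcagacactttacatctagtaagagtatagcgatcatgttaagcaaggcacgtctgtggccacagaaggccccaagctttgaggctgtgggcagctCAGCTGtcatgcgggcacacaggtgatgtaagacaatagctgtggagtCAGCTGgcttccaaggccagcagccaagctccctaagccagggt

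Growth and metabolism lists differed from each other. Of 13 ribosome biogenesis genes 7 fell and none rose, a share of 53.8% beside 3.66% of all tested genes. The list median log2 fold change was -0.55. Polr1a, the catalytic subunit of RNA polymerase I, was 74.1, 59.7 and 86.2 CPM at day 3 and 48.1, 43.4 and 40.2 CPM at day 9 and fell (log2 fold change -0.74, SE 0.14, adjusted p = 0.0181), a call that ended without day 9 replicates 3 or 4 (adjusted p up to 0.0901). The ribosome count of 7 was 0 without day 9 replicate 4, 1 when day 0 replicate 1, day 0 replicate 2, day 9 replicate 1 or day 9 replicate 3 was left out, 2 when day 0 replicate 3 or day 3 replicate 1 was left out, 3 without day 3 replicate 4 and 11 without day 3 replicate 3. None of 15 cell cycle, 15 endoplasmic reticulum folding or 14 oxidative phosphorylation genes was called, with medians of -0.42, -0.06 and -0.10. The chaperone Hsp90b1, which folds secreted proteins, was 532, 545 and 581 CPM at day 3 and 638, 624 and 551 CPM at day 9 (log2 fold change 0.13, SE 0.12, adjusted p = 0.541).

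**Figure D5:**
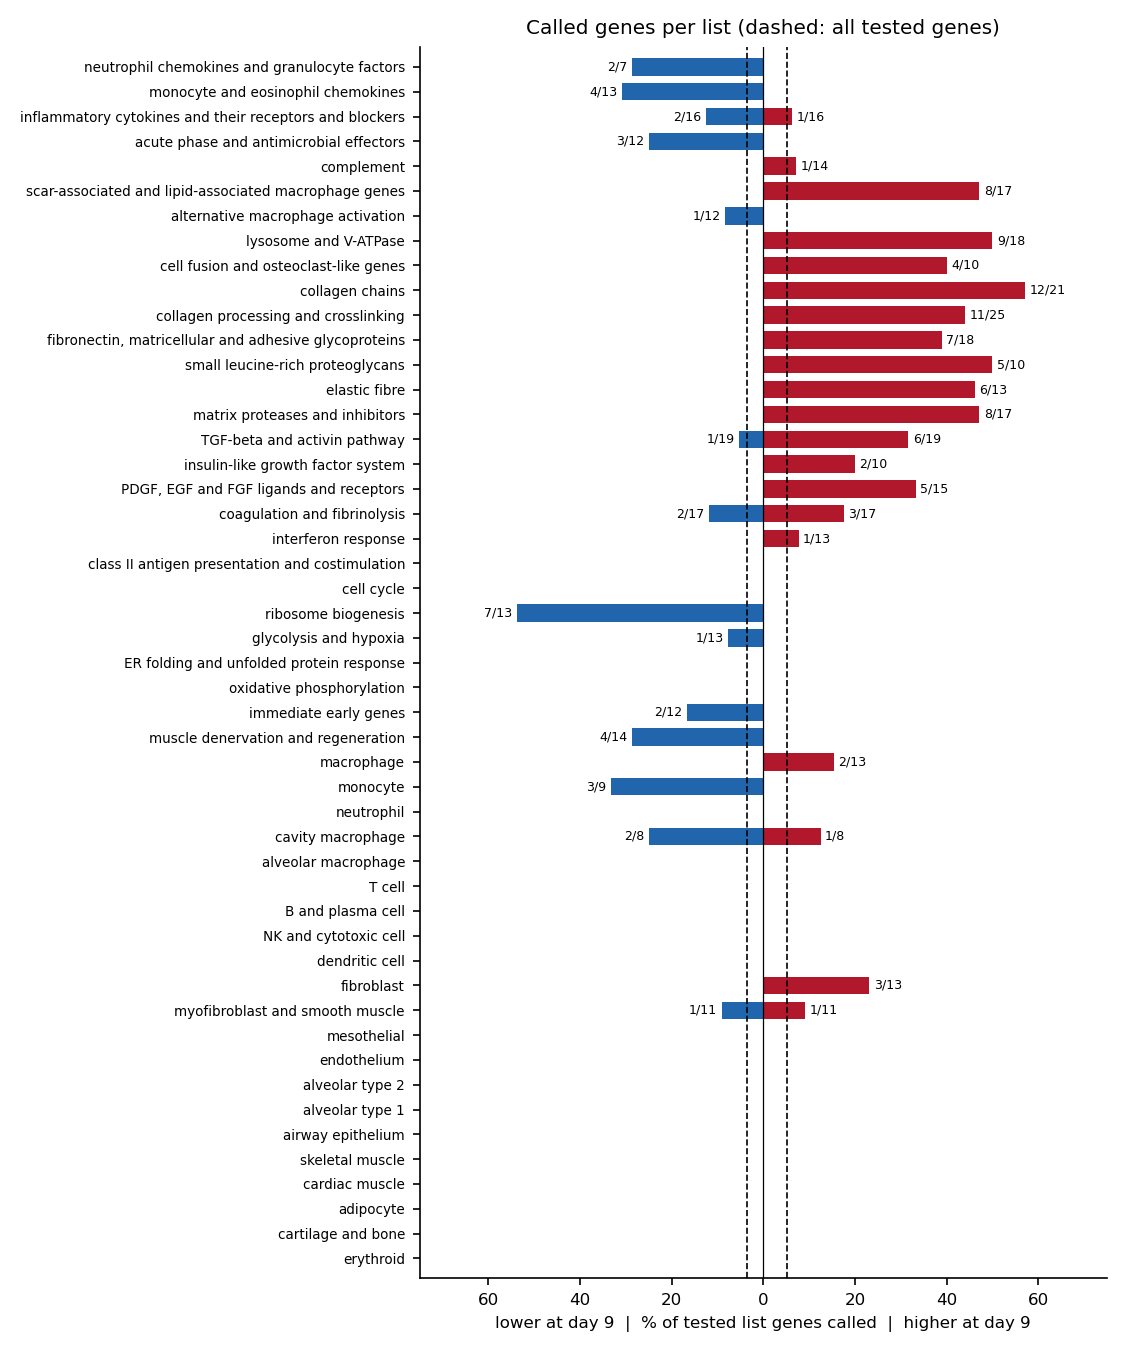
Percent of the tested genes of each of 49 lists (vertical axis) called higher at day 9 (red, to the right) or lower (blue, to the left), with counts of called over tested genes at the bar ends. Dashed lines mark the 5.19% and 3.66% of all tested genes, and the collagen chain bar reaches 57.1% on the right.

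Single genes outside the lists with the largest changes included matrix and signalling proteins. Adamts16, a secreted metalloprotease, was 0.685, 0 and 0.152 CPM at day 3 and 8.54, 11.4 and 14.1 CPM at day 9 (log2 fold change 5.30, SE 0.83, adjusted p = 0.0105). Ccn3, a matricellular protein, was 10.1, 7.11 and 2.89 CPM at day 3 and 79.6, 49.2 and 152 CPM at day 9 (log2 fold change 3.79, SE 0.52, adjusted p = 0.00765). Spon2, a secreted spondin, was 12.1, 18.7 and 4.11 CPM at day 3 and 98.9, 102 and 118 CPM at day 9 (log2 fold change 3.18, SE 0.46, adjusted p = 0.00795). These 3 kept their call without any single library. Lack of overlap between days was a condition for naming them, so it is no added result. On the other side, Card14, a scaffold of NF-kappaB signalling, was 25.7, 20.4 and 68.5 CPM at day 3 and 2.46, 0.666 and 1.89 CPM at day 9 (log2 fold change -4.54, SE 0.60, adjusted p = 0.00702). Cnksr1, a scaffold of Ras signalling, was 97.7, 58.5 and 76 CPM at day 3 and 14.5, 11.5 and 10.6 CPM at day 9 (log2 fold change -2.66, SE 0.21, adjusted p = 0.00179). Mt2, a metal-binding metallothionein, was 252, 228 and 531 CPM at day 3 and 13.7, 40.2 and 20.2 CPM at day 9 (log2 fold change -3.77, SE 0.56, adjusted p = 0.00865).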

How the data were processed

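The authors deposited 1 table of read counts per gene for 9 libraries, with totals between 12769059 and 18701063. It also holds the authors' log2 fold change and FDR-adjusted p-value for day 9 against day 3, per the file headers. GRCm38 and mm10 are named in the submitters' processing notes, while aligner, counting program and strand were not given in the sources used here. 3 emptied lines and 27 columns of per-sample values were not used. The table listed 25652 genes, of which 7737 had no count.

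Genes were tested with the edgeR 4.0.16 quasi-likelihood F test (R 4.3.3), two-sided. The fit covered all 9 libraries with 1 mean per day, genes kept by filterByExpr and TMM factors, leaving 6 residual degrees of freedom. Adjusted p is the Benjamini-Hochberg value over 14794 genes, called under 0.05. SE was derived from the test, as the absolute log2 fold change divided by the square root of F, and is approximate. Alternatives used limma 3.58.1, DESeq2 1.42.0, other scaling and filters, covariates, fewer libraries and a replicate block. The fit was checked on simulated counts drawn independently for each gene. These held no shared differences in tissue content between libraries, so the check does not cover such differences. Plots used Python 3.11.15 with matplotlib 3.10.9.

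The 49 lists held 615 entries, 613 of them in the table, and lists and members were chosen with earlier results of these data known. Named genes were, per list, up to 6 called genes in each direction with a mean of at least 1 CPM and up to 3 abundant genes not called. To these were added the 15 called genes with the largest fold change in each direction at 5 CPM or more without overlap, the 10 with the largest CPM difference, and defining tissue markers. Chrng, Col5a2, Ctsa, Cxcl1, Il1r2, Serpinh1, Timp2 and Trem2 in the report fall outside this rule and were chosen after their values were seen. The values of 1 called gene are not reported here. Library pairs within a day differed by a chi-square of 8.35 to 147 per degree of freedom, so each library was counted once. Promoters were matched by symbol to RefSeq sequences on GRCm38.p6. A form of the NF-kappaB motif with a further G was searched first and replaced by the shorter form after its matches had been seen.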

Additional observations from a re-analysis of the deposited data

How the results depend on the processing

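The 93 called genes named in the text kept their direction in every alternative that tested them, which was all 21 except for Csf3, tested in 17. Their calls were less stable, and 34 were not called with only the 6 libraries of days 3 and 9 and 55 not with the replicate block. Higher and lower genes numbered 768 and 542, and list genes among them 92 and 34. DESeq2 gave 1368 and 1033, with 140 and 55 list genes. Limma-voom with sample quality weights gave 1230 and 1394, with 129 and 54 list genes, so that 46.9% of calls were higher in place of 58.6%. With only the 6 libraries of days 3 and 9 there were 167 and 91, with 32 and 12 list genes. With the skeletal muscle mean as a covariate 845 genes were lower. Deviations of same-numbered libraries of days 3 and 9 from their day mean correlated at 0.472, 0.319 and -0.248. Not every library correlated best with its own number. With 3 libraries per day such deviations constrain each other, so these values cannot settle whether replicate numbers pair the samples. With the number as a replicate block there were 82 and 45, with 21 and 5 list genes and no called proteasome subunit or ribosome biogenesis gene. Leaving out libraries gave 270 to 2450 higher and 85 to 1648 lower genes, and 47 to 171 and 7 to 62 list genes. RLE size factors, total counts alone, limma-voom, both other filters and the alveolar type 2 covariate left the main counts within 1.5 times. Sftpc, at -0.02 on the log2 scale, was 2.52 with limma-voom, 3.91 with quality weights, 1.70 with the replicate block, 0.15 with the alveolar type 2 covariate and 2.09 with the muscle covariate, and -0.59 to 4.88 with libraries left out. Myh4, at 0.23, was -0.18 with quality weights and -0.14 to 0.90 with libraries left out, and Chrng was -5.93 to 0.54. The cause of these shifts was not tested. Adjusted p for low-count genes such as Csf3 rests on few reads.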

Other observations

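The gene families in this section were picked after their values had been seen, so their counts are descriptions. Many subunits of the proteasome, the complex that degrades ubiquitin-tagged proteins, were lower at day 9. Of 37 tested genes with proteasome subunit symbols, Psma to Psmd, 22 were called lower and none higher. This share was 59.5% beside 3.66% of all tested genes, and the median log2 fold change was -0.74. The 15 not called included Psmd5, Psmd9 and Psmd10, which encode assembly factors rather than subunits. They also included Psmb8, Psmb9 and Psmb10, at log2 fold changes of 0.01, 0.05 and -0.17. Psmd2, a subunit of the regulatory cap, was 495, 362 and 531 CPM at day 3 and 217, 197 and 206 CPM at day 9 (log2 fold change -1.16, SE 0.17, adjusted p = 0.00765). The day 9 libraries were all below day 3 and close to day 0, at 257, 228 and 206 CPM. The count of 22 was 2, 4 and 6 without day 9 replicate 4, 1 and 3, 10 and 11 without day 0 replicate 2 and 1, 30 without day 3 replicate 3, and 2 with only the 6 libraries of days 3 and 9.

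Of 7 tested muscle ubiquitin ligases 4 were called lower, a share of 57.1% beside 3.66% of all tested genes, and 3 were not called. The family median log2 fold change was -0.92. Trim63, known as MuRF1, was 216, 191 and 206 CPM at day 3 and 55.5, 66.7 and 50.4 CPM at day 9, and 183, 169 and 185 CPM at day 0 (log2 fold change -1.82, SE 0.13, adjusted p = 0.00157). Fbxo32, known as atrogin-1, was 565, 349.6 and 359 CPM at day 3 and 155, 128 and 134 CPM at day 9 (log2 fold change -1.61, SE 0.20, adjusted p = 0.00578). Both were below every library of days 0 and 3. Wnt5a, a ligand of non-canonical Wnt signalling, was 8.72, 8.16 and 8.75 CPM at day 3 and 23.4, 42.4 and 39 CPM at day 9 and rose (log2 fold change 2.03, SE 0.23, adjusted p = 0.00456). At day 0 it was 23.5, 17.3 and 18.9 CPM, above every day 3 library, and day 9 replicate 1 did not exceed the highest day 0 library. Its receptor Ror2 was 6.79, 4.76 and 4.72 CPM at day 3 and 15.6, 18.3 and 19.9 CPM at day 9 and rose as well (log2 fold change 1.72, SE 0.25, adjusted p = 0.00781). Wnt5a was the only called gene of 13 tested Wnt ligands, a share of 7.69% beside 5.19% of all tested genes. Of 13 tested Frizzled and Ror receptors 3 rose (23.1%), none fell and 10 were not called. Metallothioneins went both ways. Mt1 was 189, 203 and 406 CPM at day 3 and 43.7, 53.4 and 42.1 CPM at day 9 and fell (log2 fold change -2.52, SE 0.35, adjusted p = 0.00765), and Mt3 was 5.35, 7.46 and 2.21 CPM at day 3 and 27.1, 18.7 and 20.2 CPM at day 9 and rose (log2 fold change 2.12, SE 0.43, adjusted p = 0.0218), though the Mt3 call ended without day 3 replicate 1 or day 9 replicates 1 or 4 (adjusted p up to 0.0628).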
